A study of Mus musculus with 6 samples.

Results

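Interferon-stimulated genes are genes whose transcripts rise when cells meet interferon, and 37 of them, listed by symbol, are described here. Their expression was read in mouse C2C12 myotubes with and without knockdown of Plin2, the gene of a lipid droplet coat protein. Of the 37 genes, 34 had a probe set tied to 1 gene symbol, out of 19938 genes so named on the array, and each was read from its probe set with the highest mean. Isg15 and Igtp shared their probe sets with another gene, Ifi44 was not listed in the annotation used, and no value is given for these 3.

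C2C12 is a mouse myoblast line that fuses into multinucleated myotubes when serum is lowered, here from 10% to 2%. The 6 arrays crossed 2 siRNAs with 3 treatments, with 1 array per condition. Cells received either scrambled control siRNA or siRNA against Plin2, both at 10 nM. Each was then given albumin (BSA) alone, or 200 µM oleic acid or palmitic acid bound to BSA, for 20 h. All 6 cultures were therefore transfected with an siRNA, and cells without one were not analysed here. The labels name a line, not separate cultures or animals, so every p-value measures only the spread between these arrays. Plin2 itself read 9.29, 10.03 and 10.10 with scrambled siRNA and 6.95, 7.63 and 7.45 with Plin2 siRNA (log2, in the order BSA, oleate, palmitate), a change of -2.47 that matches the labels. Of the muscle markers, 9 were measured and their means lay at or above percentile 97.2 of all named probe sets. The 7 measured immune cell markers lay between percentiles 15.1 and 40.8, with Ptprc, the pan-leukocyte gene, at 16.0.

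Interferons are secreted proteins made when a cell senses foreign nucleic acid. Type I interferon binds a surface receptor, and the kinases beneath it activate STAT2, which acts with IRF9 at a promoter element named the interferon-stimulated response element (ISRE). The products of the genes so induced sense RNA, block viral replication, present antigen or feed back on the pathway. Double-stranded RNA is a ligand of several of these sensors, and muscle fibres are known to show such genes in some inflammatory muscle diseases.

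The promoters of 4 of the 5 genes that fell with the knockdown, Ifit1, Cxcl10, Stat2 and Bst2, are shown with that of Ifit3, a neighbour of Ifit1 that did not pass the threshold. All 5 shown hold the ISRE core, and the other gene that fell, Ifit2, has 2 promoter windows and no match in either. The core was searched as GAAA, any 2 bases and GAAA on either strand (TTTC, 2 bases, TTTC when read on the other). Each run is the 250 bases before the transcription start, 5′ to 3′ on the gene's own strand, from RefSeq on build GRCm38.p6, with core matches in capitals. The Ifit1 stretch is chr19:34640639-34640888 (plus strand), Ifit3 is chr19:34583279-34583528 (plus strand), Cxcl10 is chr5:92348890-92349139 (minus strand), Stat2 is chr10:128270248-128270497 (plus strand) and Bst2 is chr8:71537473-71537722 (minus strand).
Ifit1: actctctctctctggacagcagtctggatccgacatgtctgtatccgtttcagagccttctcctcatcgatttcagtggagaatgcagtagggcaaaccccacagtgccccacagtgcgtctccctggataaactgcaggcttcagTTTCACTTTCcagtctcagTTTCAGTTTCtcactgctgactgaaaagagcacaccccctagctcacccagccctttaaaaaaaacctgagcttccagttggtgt
Ifit3: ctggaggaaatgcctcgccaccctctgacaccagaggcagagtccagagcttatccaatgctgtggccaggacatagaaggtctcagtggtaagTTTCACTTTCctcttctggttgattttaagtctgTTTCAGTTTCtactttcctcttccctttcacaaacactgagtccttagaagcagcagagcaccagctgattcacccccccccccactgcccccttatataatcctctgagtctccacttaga
Cxcl10: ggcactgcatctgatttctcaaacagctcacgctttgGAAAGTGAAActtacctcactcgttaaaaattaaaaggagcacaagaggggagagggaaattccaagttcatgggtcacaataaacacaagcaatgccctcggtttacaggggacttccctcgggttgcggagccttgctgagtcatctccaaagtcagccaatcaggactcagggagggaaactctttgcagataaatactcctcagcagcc
Stat2: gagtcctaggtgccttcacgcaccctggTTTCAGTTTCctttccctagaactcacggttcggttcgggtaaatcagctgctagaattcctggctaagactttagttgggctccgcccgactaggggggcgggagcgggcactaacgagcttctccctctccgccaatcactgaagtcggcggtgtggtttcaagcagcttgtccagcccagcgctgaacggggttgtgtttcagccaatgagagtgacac
Bst2: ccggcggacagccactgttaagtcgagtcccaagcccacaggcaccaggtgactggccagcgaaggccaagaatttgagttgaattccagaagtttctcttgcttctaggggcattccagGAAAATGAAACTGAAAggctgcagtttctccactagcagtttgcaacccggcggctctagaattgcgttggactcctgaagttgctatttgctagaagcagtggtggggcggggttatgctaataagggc

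Both Ifit1 and Ifit3 held the same 2 matched decamers, TTTCACTTTC and TTTCAGTTTC. In Ifit1 the matches began 104 and 85 bases before the start, and in Ifit3 they began 156 and 122 bases before it. Cxcl10 had its single match 213 bases and Stat2 222 bases before the start. In Bst2 a pair of matches overlapped, beginning 130 and 124 bases before the start. RefSeq windows, which run from 250 bases before to 50 after the start, were matched by symbol for 26 of the 37 genes. Of these, 13 (50%) held the ISRE core on either strand, against 3.44% of all 32851 windows. Besides the 5 shown these were Isg15, Igtp, Oas1a, Irgm1, Rsad2, Ddx58, Ifih1 and Eif2ak2, and in the last 3 named the match lay after the start. A match is a run of letters and not a bound site.

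**Figure D1:**
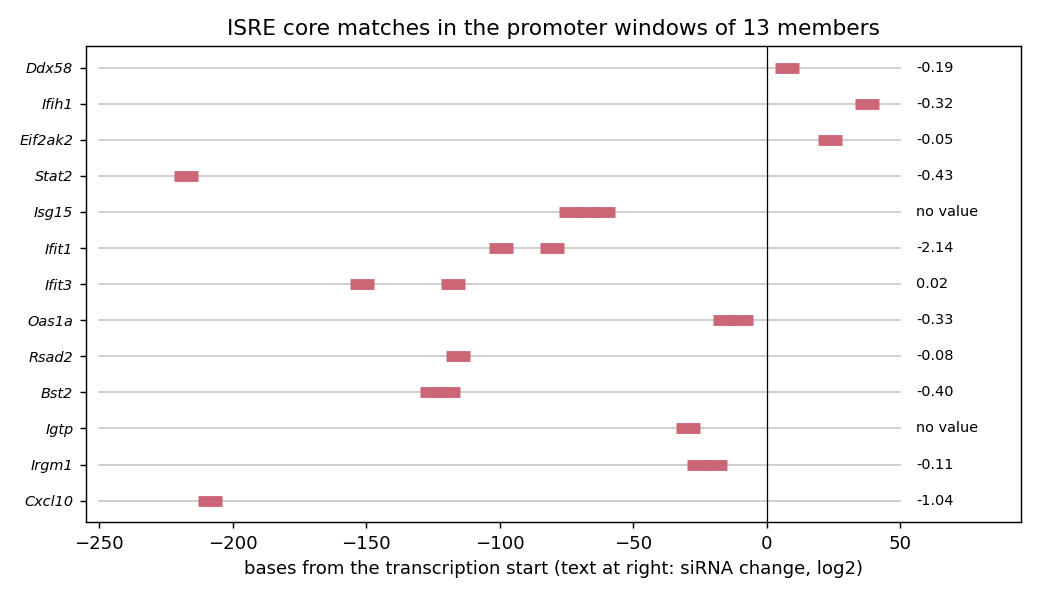
Position of each ISRE core match (coloured block) in the promoter windows of the 13 members that hold one; the x axis is bases from the transcription start, each grey line is a window of 300 bases, and the siRNA change (log2) stands at the right. Ifit1 (-2.14) and Ifit3 (0.02) both hold 2 matches.

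The first question was how knockdown of Plin2 changed these genes. Ifit1 and Cxcl10 fell clearly, Stat2, Bst2 and Ifit2 fell by less than 0.5 log2 units, and Trim25 rose. Thus 5 of 34 members fell, 1 rose and 28 did not pass the threshold, an adjusted p under 0.05. The change of a gene is the log2 difference of Plin2 siRNA minus scrambled siRNA in a limma fit with treatment as a further term, so its error is the variation between the 3 treatments. Over all 21789 named probe sets 17.1% were called in this comparison, 8.50% higher and 8.58% lower. The members' share of 17.6% in either direction is near that background and is no result about the list. Lower calls made up 14.7% of members.

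Ifit1 encodes a protein that binds viral RNA with a foreign cap. Its 3 scrambled arrays read 5.78 (BSA), 4.78 (oleate) and 6.29 (palmitate) on the log2 scale. Values are given in that order of treatments from here on, and the knockdown arrays read 3.34, 3.35 and 3.73. All 3 knockdown arrays lay more than 1 log2 unit below the lowest scrambled array, which was the oleate one. The change was -2.14 (SE 0.19, 95% interval -2.55 to -1.73, limma adjusted p = 1.9e-05), or 4.41-fold lower. Its pair differences were -2.44 in BSA, -1.43 in oleate and -2.55 in palmitate.

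Cxcl10 encodes a chemokine that draws activated T cells and is induced by interferons and by NF-kB. The scrambled arrays read 5.94, 5.68 and 6.46, and the knockdown arrays 4.70, 5.12 and 5.14, so the groups did not overlap. The change was -1.04 (SE 0.15, 95% interval -1.37 to -0.72, limma adjusted p = 0.000545), or 2.06-fold lower. As with Ifit1, the difference was smallest in oleate (-0.56) and larger in BSA (-1.24) and palmitate (-1.32).

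Stat2 is the signalling subunit that carries the type I response to the nucleus. It read 7.66, 7.48 and 7.81 with scrambled siRNA, and 7.13, 7.23 and 7.30 with Plin2 siRNA. Every knockdown array was below every scrambled array. Its change was -0.43 (SE 0.09, limma adjusted p = 0.00591). The call was lost without either BSA array and when all probe sets entered the fit (highest adjusted p = 0.0607).

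Bst2 encodes tetherin, a membrane protein that holds budding virus at the cell surface. It read 6.36, 6.38 and 6.25 in the scrambled arrays, and 5.82, 6.15 and 5.82 in the knockdown arrays. The groups did not overlap, with the oleate array of the knockdown nearest to the scrambled ones. The change was -0.40 (SE 0.11, limma adjusted p = 0.0227). This call was lost in 5 of 12 alternatives, namely with all probe sets and without any of the 4 BSA or palmitate arrays (highest adjusted p = 0.201).

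Ifit2, a further RNA-binding member of the Ifit family, sat at the edge of the threshold. Scrambled arrays read 6.11, 5.93 and 6.07, and knockdown arrays 5.55, 5.68 and 5.81. They did not overlap, but the gap between the nearest pair was small. The change was -0.36 (SE 0.11, limma adjusted p = 0.0491), and the call was lost in 8 of 12 alternatives (highest adjusted p = 0.396).

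Trim25, a ubiquitin ligase known for its action on the RNA sensor RIG-I, moved the other way. It read 7.11, 7.20 and 6.92 with scrambled siRNA, and 7.83, 7.84 and 7.89 with Plin2 siRNA. The 3 knockdown arrays lay close together and above all scrambled arrays. The change was 0.78 (SE 0.09, 95% interval 0.58 to 0.98, limma adjusted p = 0.000142), or 1.71-fold higher. Ifit1, Cxcl10 and Trim25 kept their calls in all 12 alternatives run, among them the removal of each array in turn. Those removals are not independent, since leaving out either array of a treatment gives in effect the same siRNA fit.

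**Figure D2:**
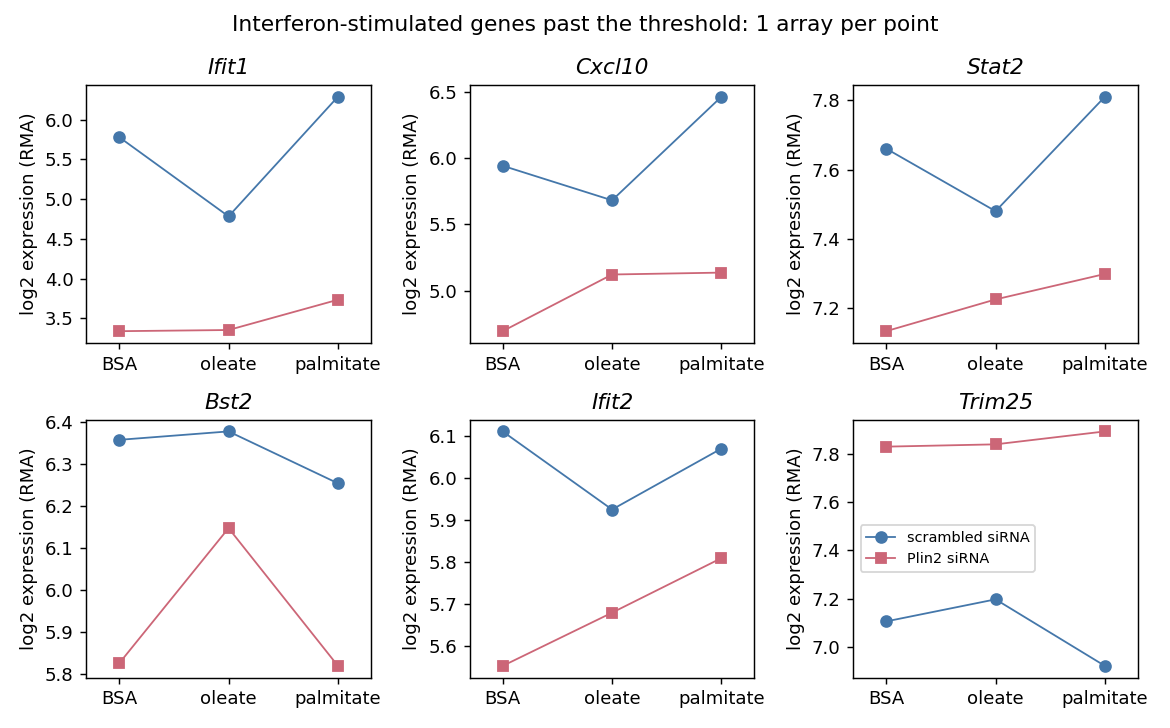
Log2 expression (y axis, a separate scale for each gene) of the 6 members past the threshold, by treatment (x axis); each point is 1 array, circles are scrambled siRNA and squares Plin2 siRNA, and lines join arrays of 1 siRNA only to guide the eye. The siRNA groups do not overlap in any panel, and Trim25 alone is higher in the knockdown. The panels were chosen by this same comparison, and over all named probe sets 30.3% do not overlap.

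The Ifit genes lie together on chromosome 19, and their measured changes differed. Ifit3 read 3.11, 3.02 and 3.58 with scrambled siRNA and 3.31, 3.19 and 3.27 with Plin2 siRNA. Those groups overlapped, and its change was 0.02 (95% interval -0.25 to 0.29), an interval that does not meet that of Ifit1. Ifit3 was dim, with a mean at percentile 12.3 of all named probe sets, against 34.3 for Ifit1. The Ifit1 knockdown arrays (3.34, 3.35 and 3.73) read about as low as Ifit3. Whether a fall of Ifit3 could have shown at that level was not tested. In the RefSeq order of coding genes Ifit2 and Ifit3 are adjacent, and Ifit1bl1, Ifit3b and Ifit1bl2 lie between Ifit3 and Ifit1. The relatives Ifit1bl2 and Ifit3b stood at -0.14 and -0.07, neither past the threshold, and were dim too (percentiles 8.27 and 9.19). Probe sequences were not used here, so signal shared between such relatives was not tested.

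Of the 28 members that did not pass, 3 (Ifih1, Zbp1 and Xaf1) had an unadjusted p under 0.05. Trim25, which acts on a sensor, is given above. Of the 5 nucleic acid sensors themselves, 0 passed the threshold, and all 5 changes were below 0. They were -0.33 for Zbp1, which senses Z-form nucleic acid, -0.32 for Ifih1 (MDA5, a sensor of long double-stranded RNA) and -0.19 for Ddx58 (RIG-I, a sensor of RNA ends). Dhx58 (LGP2, a modulator of those helicases) stood at -0.15 and Eif2ak2 (PKR, the kinase that halts translation on double-stranded RNA) at -0.05. The pair differences lay on both sides of 0 for Dhx58 (-0.56, -0.14 and 0.25) and Eif2ak2 (0.06, -0.38 and 0.15). Ifih1 read 4.44, 4.66 and 4.70 with scrambled siRNA and 4.30, 4.39 and 4.15 with Plin2 siRNA. Its groups did not overlap, and its limma adjusted p was 0.108. Zbp1 read 5.13, 4.90 and 5.52 against 4.96, 4.88 and 4.71, and these groups overlapped.

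Of the other transcription factors, Irf1 and Irf9 (the DNA-binding partner of STAT2) each stood at -0.15. Irf7, the main amplifier of type I interferon genes, stood at -0.07. None passed, although the 3 Irf1 knockdown arrays (7.34, 7.25 and 7.47) lay just below the scrambled ones (7.50, 7.49 and 7.53). Irf1 has a second, dimmer probe set, whose change was -0.20. Usp18, which removes ISG15 from proteins and restrains the interferon receptor, stood at -0.13, and only its BSA pair was below 0 (-0.44).

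The OAS family makes the second messenger that activates RNase L, and the Oasl members are their relatives. Oas1a stood at -0.33 (adjusted p = 0.202 by limma), Oasl1 at -0.14, Oas2 at -0.11 and Oasl2 at -0.09, and 0 of 4 passed. Oas1a read 5.17, 4.82 and 5.73 with scrambled siRNA and 5.03, 4.82 and 4.90 with Plin2 siRNA. The groups overlapped, and the scrambled palmitate array stood above the other five. Without either oleate array the Oas1a change was -0.49 and passed (highest adjusted p = 0.0231), as did that of Zbp1 (-0.49, highest adjusted p = 0.0236). Those fits had 1 residual degree of freedom.

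In the Mx and viperin group 0 of 4 passed. The antiviral GTPases Mx2 and Mx1 stood at -0.17 and 0.03, viperin (Rsad2, which makes a chain-terminating nucleotide) at -0.08, and its gene neighbour Cmpk2, a mitochondrial nucleotide kinase, at -0.04. Mx1 and Mx2 had means at percentiles 4.92 and 8.39, so their levels were near the bottom of the array's range. Mx2 read 3.13, 3.21 and 3.00 against 2.92, 2.92 and 2.99.

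Among other induced proteins, Xaf1, a promoter of apoptosis, stood at -0.32, with 5.63, 5.52 and 5.39 in the scrambled arrays and 5.19, 5.08 and 5.32 in the knockdown arrays. Its groups did not overlap, and its limma adjusted p was 0.102, which became 0.0328 without either palmitate array. Ifi27l2a stood at -0.08, Ifi35 at 0.02 and Rtp4 at 0.25, the largest rise after Trim25 (adjusted p = 0.227 by limma).

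The immunity-related GTPases Irgm1 and Iigp1, which act on membranes around intracellular pathogens, stood at -0.11 and 0.14. Of the PARP family, enzymes and relatives of ADP-ribosylation, Parp9 stood at -0.22, Parp12 at -0.18 and Parp14 at 0.22. Parp14 read 5.44, 5.24 and 5.18 against 5.69, 5.26 and 5.58, with overlap. Tap1, a subunit of the transporter that brings peptides to MHC class I, stood at -0.15. None of these 6 genes passed the threshold.

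**Figure D3:**
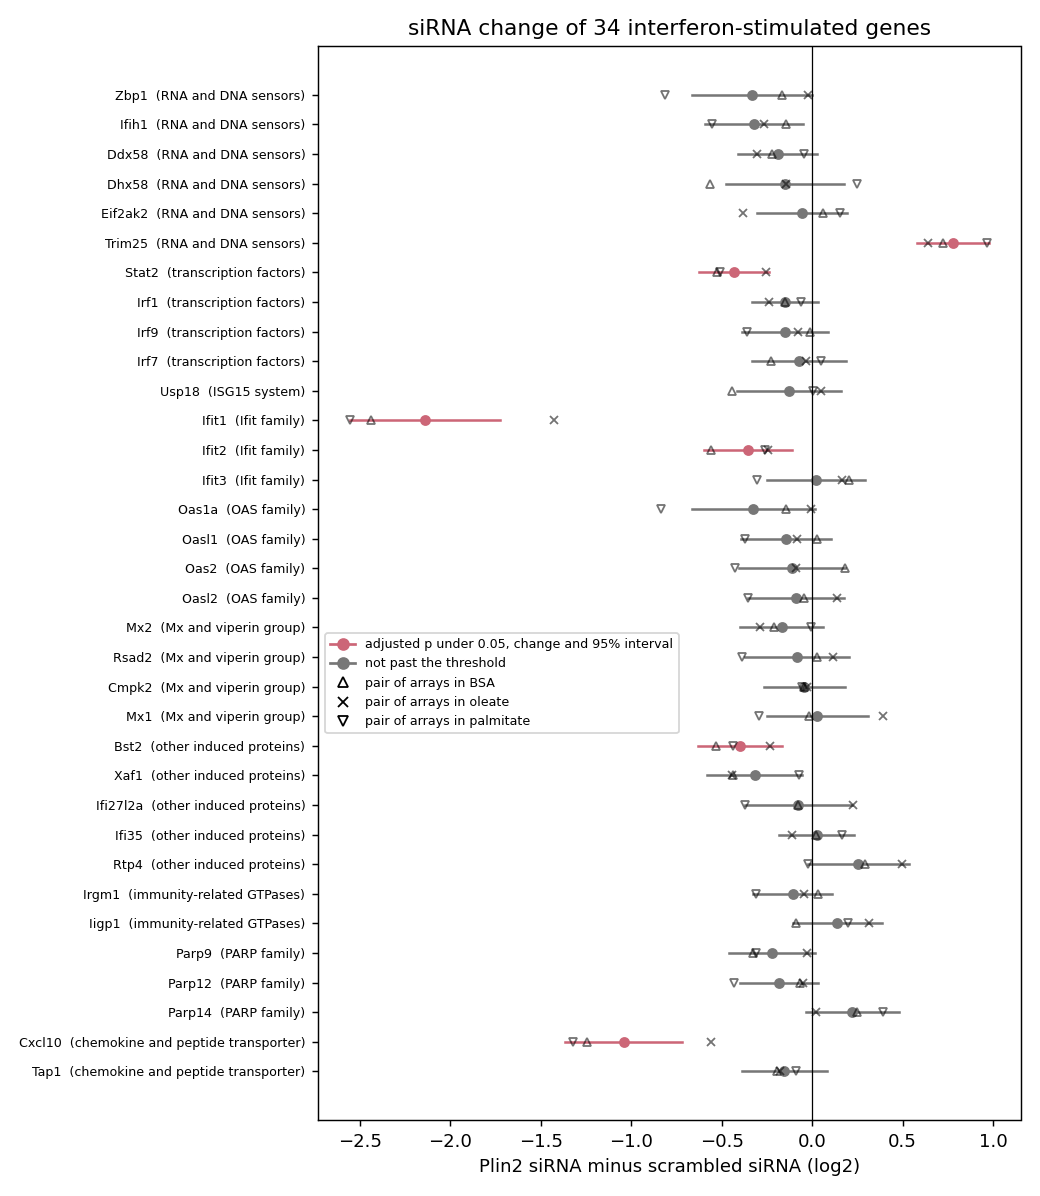
siRNA change (x axis, log2, Plin2 siRNA minus scrambled siRNA) of the 34 measured members, grouped by role; filled points and bars are the fitted change and its 95% interval, and open symbols and crosses are the single pairs of arrays. Of the 34 points 27 lie below 0, and 5 of the coloured ones are lower and 1 higher.

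As a list, the members lay to the lower side. Their median change was -0.15 against 0.01 over all named probe sets, and 27 of 34 (79.4%) were below 0, against 48.2% of all. In 17 of 34 the knockdown array was the lower one in every treatment (50%, against 21.9% of all probe sets). In 2 it was the higher one every time (5.88%, against 23.6% of all probe sets). In 11 members all 3 knockdown arrays lay below all 3 scrambled arrays, and in 1 they lay above; over all probe sets the shares were 14.7% and 15.6%, together 30.3%. The list was chosen with earlier results of these data known, and no test was made of it. By treatment the median difference was -0.12 (BSA), -0.06 (oleate) and -0.30 (palmitate), while that of all probe sets was 0.02, 0.03 and -0.03. Without either palmitate array the fitted median was -0.08. Signal was low for many members: 9 of 34 had means in the lowest 33.3% of named probe sets and 3 in the highest.

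**Figure D4:**
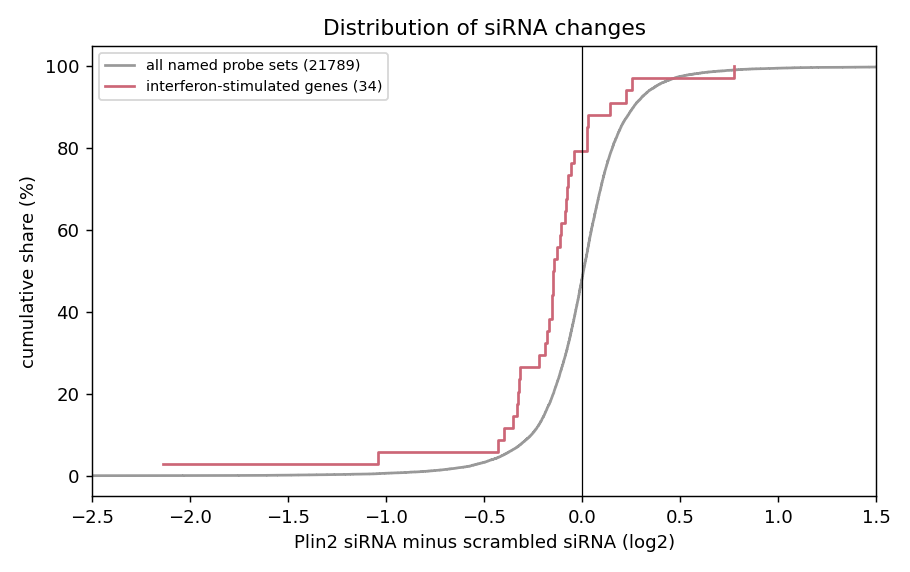
Cumulative share (y axis, %) of siRNA changes (x axis, log2) for the 34 members and for all 21789 named probe sets, a few of which lie beyond the axis. The members' curve crosses 0 at 79.4% and that of all probe sets at 48.2%; the members furthest to the left are Ifit1 (-2.14) and Cxcl10 (-1.04).

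Promoter letters and changes were set side by side as a description. Of the 23 measured members with a window, 11 held the ISRE core and had a median change of -0.32, with 4 lower calls. The 12 without it had a median of -0.15, with 1 lower call (Ifit2) and 1 higher call (Trim25). Over all 15614 named genes with a window, the 607 with the core had a median of 0.00, as had those without it, and 8.57% of them were called lower and 6.75% higher. The GAS element, searched as TTCNNNGAA (its own reverse complement), was found in 7 of 26 members and in 8.30% of all windows. In Bst2 it overlaps an ISRE core match.

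The second question was how each fatty acid changed these genes. Against BSA, 0 of 34 members passed the threshold with oleate and 0 with palmitate by limma (2 and 1 at an unadjusted p under 0.05). The share of all probe sets called was 0.0734% with oleate (0.0321% higher, 0.0413% lower) and 0.00918% with palmitate, all higher. The members' median was -0.04 with oleate and 0.06 with palmitate, beside -0.02 and -0.01 over all probe sets. Ifit1 stood lowest with oleate (-0.49, SE 0.23), with -0.997 in the scrambled pair and 0.01 in the knockdown pair. That knockdown pair read 3.34 and 3.35, and whether a further fall could have shown at that low level was not tested. Without the Plin2 siRNA oleate array the oleate change of Ifit1 was -1.03, with 1 oleate array left. With palmitate Cxcl10 stood highest (0.48, SE 0.18; pairs 0.52 and 0.44), followed by Ifit1 at 0.45 (pairs 0.51 and 0.40). Rsad2 had the lowest adjusted p with oleate (-0.39, adjusted p = 0.725).

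Oleate and palmitate were compared at the same dose and time; oleate has a cis double bond and a longer chain. By limma 0 of 34 members passed (3 at an unadjusted p under 0.05), while 0.262% of all probe sets did (0.142% higher in palmitate, 0.119% lower). Ifit1 was furthest apart, 0.94 higher in palmitate (SE 0.23, adjusted p = 0.187), then Oas1a at 0.49 (SE 0.19) and Cxcl10 at 0.40 (SE 0.18). All 3 Ifit genes and all 4 OAS genes had values above 0, with family medians of 0.32 and 0.28. Of all 34 members 29.4% had values below 0, against 46.5% of all probe sets. The members' median was 0.13, against 0.01 for all probe sets. Without the Plin2 siRNA oleate array 3 members passed, Ifit1 (1.48), Oas1a (0.74) and Cxcl10 (0.76). In that fit 2.47% of all probe sets were called, 1 oleate array was left, and the prior had 377 degrees of freedom against 9.21 with all arrays. Without the Plin2 siRNA palmitate array the change was 1.25 for Ifit1 and 0.87 for Oas1a. Members passed only where a Plin2 siRNA fatty acid array was left out, not where the scrambled oleate or scrambled palmitate array was. In scrambled arrays Ifit1 read 4.78 with oleate and 6.29 with palmitate, and in knockdown arrays 3.35 and 3.73. Oas1a read 4.82 and 5.73 in scrambled arrays, and 4.82 and 4.90 in knockdown arrays.

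The scrambled palmitate array held the highest of the 6 values in 18 of 34 members, 52.9%, against 23.6% of all named probe sets. These 18 included Ifit1, Ifit3, the 4 OAS genes, Cxcl10, Stat2, Irf9, Parp9, Parp12 and Tap1. In scrambled cells the palmitate minus BSA difference was 0.56 for Oas1a, 0.47 for Ifit3, 0.46 for Oas2 and 0.39 for Zbp1. In Plin2 siRNA cells the same differences were -0.13, -0.04, -0.15 and -0.25. Dhx58 ran the other way, at -0.65 and 0.16. The median over the members was 0.09 in scrambled and -0.01 in Plin2 siRNA cells. Each of these differences rests on 1 array per condition, and a feature of that single scrambled array cannot be told apart from palmitate with scrambled siRNA. The array's median over all probe sets was 5.02, the highest of the 6, which ranged from 4.94 upward.

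**Figure D5:**
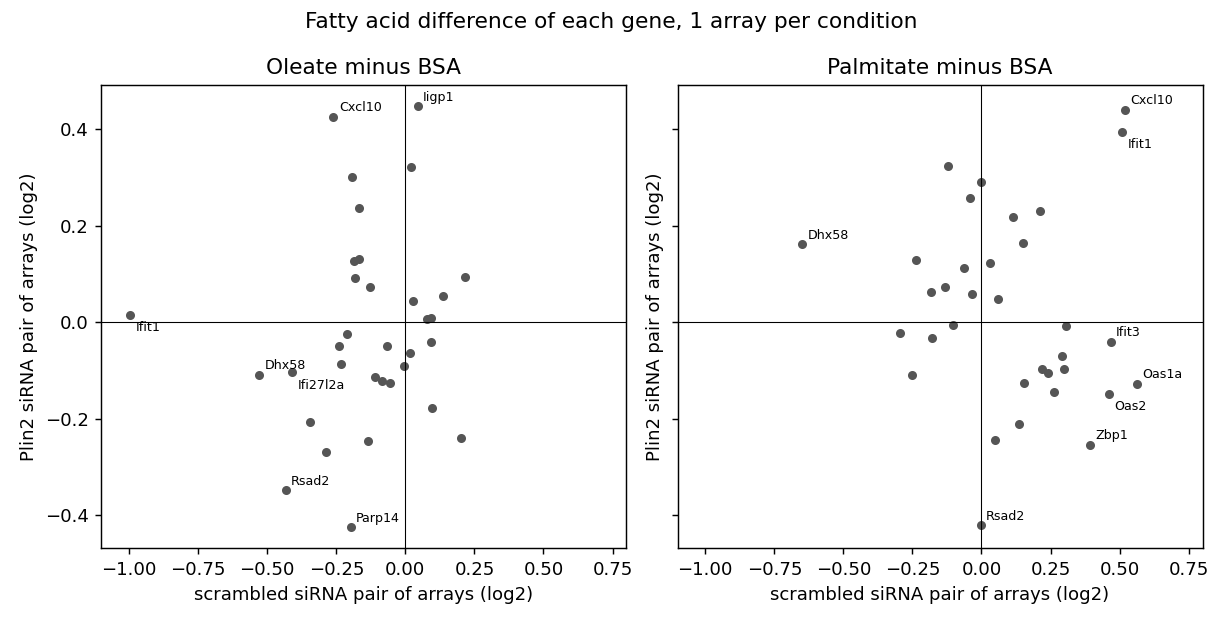
Difference from BSA (log2) of each of the 34 members in scrambled siRNA cells (x axis) and in Plin2 siRNA cells (y axis), for oleate (left) and palmitate (right); each point is a gene, with 1 array per condition. Cxcl10 and Ifit1 lie above 0 on both axes with palmitate, while Oas1a, Oas2, Ifit3 and Zbp1 do so in scrambled cells only.

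Whether the siRNA change depended on the treatment was tested with interaction terms. The term for palmitate was chosen with earlier results of these data known. With a term for palmitate against the other treatments, 0 of 34 members passed by limma, 5 had an unadjusted p under 0.05, and 0.0413% of all probe sets were called (0.0229% higher, 0.0184% lower). The 5 were Oas1a (-0.76, SE 0.23, adjusted p = 0.314), Zbp1 (-0.72), Ifit3 (-0.49), Parp12 (-0.37) and Dhx58 (0.60). With a term for either fatty acid against BSA, 0 members passed, 1 had an unadjusted p under 0.05, and 0% of all probe sets were called. Both fits leave 1 residual degree of freedom.

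Other genes of the pathway were taken from lists set by their known roles, with earlier results of these data known. Ifnb1, the gene of interferon beta, stood at 0.05 in the siRNA comparison, with a mean at percentile 11.5. Of 32 measured ligands, receptors, kinases, adaptors and regulators, 4 rose and 2 fell, 18.8% in all, which is near the 17.1% of all probe sets. The kinase Jak2 (0.53), the repressor Irf2 (0.33), the RIG-I adaptor Mavs (0.33) and the regulator Pias1 (0.27) rose. The shared cytokine receptor subunit Il10rb (-0.59) and the phosphatase Ptpn11 (-0.28) fell. The type I receptor subunits Ifnar1 (0.09) and Ifnar2 (-0.05) did not pass.

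Among 39 further measured interferon-induced genes outside the main list, 10 fell and 1 rose (28.2%, beside the 17.1% of all probe sets), with a median of -0.03. The lysosomal thiol reductase Ifi30 (-0.73), the RNA-degrading enzyme Pnpt1 (-0.71), Ifi205 (-0.52), Lgals9 (-0.44) and the exonuclease Isg20 (-0.43) fell most. Ifi205 was dim (percentile 9.3) and at the edge of the threshold (limma adjusted p = 0.0479). Its pair differences were -0.27 in BSA, -1.115 in oleate and -0.16 in palmitate. Samhd1, which degrades nucleotides, rose (0.30). Of 11 antigen presentation genes 0 passed by limma, with 4 at an unadjusted p under 0.05.

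Of the guanylate-binding proteins, a family of interferon-induced GTPases, 4 of 8 measured members rose and 0 fell (8.50% of all probe sets were called higher). They were Gbp8 (3.06), Gbp9 (1.51), Gbp11 (1.33) and Gbp4 (1.04), relatives between which shared probe signal was not tested. The other 4 did not pass, with Gbp5 at 0.15, Gbp2b at 0.06, Gbp7 at 0.03 and Gbp3 at -0.07. Of 19 NF-kB targets 2 rose and 2 fell (21.1%, near the 17.1% of all probe sets), among them the chemokine Cxcl5 (0.94) and the prostaglandin synthase Ptgs2 (-0.96). Mean log2 expression over the 7 immune markers was 4.25 to 4.32 in scrambled arrays and 4.16 to 4.19 in knockdown arrays. Of these markers 1 passed, the lysosomal gene Cd68 (-0.53). Of the 9 muscle markers 5 fell and 1 rose, 66.7% against 17.1% of all probe sets. Of the 4 fibroblast markers Pdgfra rose (0.36), while Dpt (-0.53), Dcn (-0.29) and Lum (0.00) did not pass, and 0 of 3 endothelial markers passed by limma (0 at an unadjusted p under 0.05). Fewer cells of a type and less RNA per cell cannot be told apart in such bulk samples, and the part of these shifts in the members' changes was not tested.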

How the data were processed

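Total RNA (100 ng) of 6 C2C12 myotube cultures was hybridised to Affymetrix whole-transcript arrays. The deposited values are log2 expression per probe set, made by RMA per the submitters' processing notes; its version and a build were not found (not given in the sources used here). RMA returns log2, and the range of the values fits that base. Of 35556 probe sets, GEO's platform annotation tied 21789 to 1 gene symbol and 1621 to several, and 12146 are unnamed here. By Entrez ID, 21698 matched RefSeq (GRCm38.p6), which changed 0 symbols.

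A linear model with siRNA and treatment as terms was fitted per probe set (limma 3.58.1, R 4.3.3; lmFit, then eBayes with an intensity trend), with Benjamini-Hochberg adjustment over the 21789 probe sets and a threshold of 0.05. This leaves 2 residual degrees of freedom plus 9.21 from the prior. The fit was tested on simulated data: with 1 residual degree of freedom (interactions, or an array left out) the prior was unstable and false calls could be more frequent. The members, the lists and the interaction term for palmitate were chosen with earlier results of these data known. Every member was to be named, those past the threshold in full; other lists give at most their 5 largest calls, and Samhd1, Pias1, Ifnb1, Ifnar1, Ifnar2, Ifit1bl2, Ifit3b, Gbp2b, Gbp3, Gbp5 and Gbp7 were added after their values were seen. Precision is limited by there being only 6 arrays.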

Additional observations from a re-analysis of the deposited data

How the results depend on the processing

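The 6 members called in the siRNA comparison were 3 when all probe sets entered the fit (1 higher, 2 lower), and 3 to 8 when 1 array was left out. With all probe sets in the fit 6.07% of them were called. The count was 3 without either BSA array, 5 without either palmitate array and 8 without either oleate array. In those fits 10.2%, 15.1% and 17.6% of all named probe sets were called, beside 17.1% with all arrays. Leaving out either array of a treatment gives in effect the same fit, since an array whose partner is missing carries no information on the siRNA change. The fits without an oleate array had a prior of 562 or 377 degrees of freedom, against 9.21, and their p-values may be too small. Dropping the intensity trend, median centring and quantile normalization each gave 5. The list median stayed below 0 in every alternative run, from -0.16 to -0.08 over the arrays left out. The 0 members called became 0 to 1 for oleate (Ifit1, without the Plin2 siRNA oleate array) and 0 to 3 for palmitate minus oleate when 1 array was left out. They stayed at 0 for palmitate and, in the alternatives run, for both interactions, which could not be fitted with an array left out. The 6 called members kept their direction in all 12 alternatives each. Of the 28 members not called, 3 passed in some alternative (Oas1a, Zbp1 and Xaf1). The labels give no replicate numbers; the siRNA comparison pairs the arrays by treatment, since treatment is a term of the fit.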
